A study of Mus musculus with 6 samples.

Results

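miR-34a and miR-34c (mmu-miR-34a and mmu-miR-34c on the array), 2 of its 611 mouse microRNAs (miRNAs), were examined in LPS-activated macrophages with and without the Notch effector RBP-J. They were chosen by name, miR-34a because it had already stood among the miRNAs with the smallest unadjusted p in the genotype comparison of these arrays, and miR-34c as its relative. Their genotype differences are therefore given as descriptions, with their error and no p-value. Bone-marrow-derived macrophages came from female C57BL/6 mice. Knockout mice were MxCre-RBP-Jf/f, with floxed RBP-J on both alleles, and control mice were MxCre-RBP-Jf/+, with 1 floxed allele, although the sample titles call them WT. Mice of both genotypes carried Cre and had received poly(I)-poly(C), and all macrophages were stimulated with lipopolysaccharide (LPS), a bacterial cell-wall component, for 24 h. The Mx promoter answers to interferon in many cell types, so the deletion was not limited to macrophages. There were 3 arrays per genotype and none from unstimulated cells, and no age was given. Loss of RBP-J could not be checked here, since these arrays hold no probe for its mRNA. The labels do not say whether replicates were separate animals or cultures, so the spread reported here may be technical.

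The miR-34 family is the best known group of miRNAs switched on by the tumour suppressor p53. Its members bind mRNAs of cell cycle and survival genes such as Cdk6, Ccnd1, Met and Bcl2, and of the Notch pathway genes Notch1 and Jag1. miR-34a has its own gene and is found in most tissues, whereas miR-34b and miR-34c come from 1 shared transcript and, like the miR-449 genes, are typical of ciliated epithelium, testis and brain. In macrophages miR-34a has been described as a brake on inflammatory activation that acts through Notch1.

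The seed, bases 2 to 8 of a miRNA, sets which mRNAs it can pair with. These sequences show that the relatives share it, so that they could act on the same mRNAs, and differ mainly after it. Names on the array were paired with RefSeq names for 6 of the 8 miR-34 and miR-449 entries (GRCm38.p6); those of miR-34c and miR-449b were not paired. The mature sequences with the seed in capitals are, 5′ to 3′:
miR-34a (plus strand, chr4:150068473-150068494): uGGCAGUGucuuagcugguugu
miR-34b-5p (minus strand, chr9:51103610-51103632): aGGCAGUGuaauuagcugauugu
miR-449a (plus strand, chr13:113037549-113037570): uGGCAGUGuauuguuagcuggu
miR-449c (plus strand, chr13:113036008-113036028): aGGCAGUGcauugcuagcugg

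This seed, GGCAGUG, was held by 4 of the 1679 mature mouse miRNAs in the RefSeq table (0.238%), all of them printed above. The 2 entries that were not paired, miR-34c and miR-449b, are outside this count. It pairs with CACUGCC in an mRNA. Counted as single-base changes, insertions or deletions, miR-34b-5p lay 4 edits from miR-34a, miR-449a 6 and miR-449c 7. The longest run of bases shared with miR-34a was 8 bases in miR-34b-5p, 9 in miR-449a and 7 in miR-449c. The opposite arms, miR-34b-3p and miR-34c*, carried another seed, AUCACUA.

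The hairpin of Mir34a is printed because miR-34a was the 1 family member measured on every array. Its capitals mark the arm that becomes miR-34a, bases 20 to 41 of 102.
Mir34a hairpin (plus strand, chr4:150068454-150068555): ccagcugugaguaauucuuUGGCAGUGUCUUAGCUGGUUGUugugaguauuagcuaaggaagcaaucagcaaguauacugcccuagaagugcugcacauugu

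Signals were fluorescence intensities of 1-colour arrays on 1 slide. A miRNA counted as detected on an array when, for any of its probes, at least 50% of the spots not marked as outliers carried the scanner software's mark for a signal well above background. Between 127 and 141 mouse miRNAs met this on each array, 110 met it on all 6, and no spot was saturated. All 6 miRNAs of the fixed list for haematopoietic and myeloid cells were detected on every array. They were miR-223, miR-142-3p, miR-142-5p, miR-155, miR-146a and miR-21, and how far each is confined to such cells was not tested. Of 21 fixed markers of other cells, which included lymphoid, erythroid, endothelial, epithelial and muscle miRNAs, 20 were detected on none, and the exception was miR-34c itself; of all 611 miRNAs, 452 were detected on none. Knockout arrays were dimmer. The 75th percentile of probes detected on all arrays, by which each array was scaled, averaged 294 ± 55.1 (SD, n = 3) intensity units over the control arrays, against 213 ± 23.2 (SD, n = 3) over those of the knockout. The mr_1 control spots gave 848 ± 73.2 (SD, n = 3) and 715 ± 32.8 (SD, n = 3) units. In a principal component analysis of the tested miRNAs, knockout replicate 2 lay at 4.71 on component 1, with the other arrays from -2.04 to 0.37. Control replicate 1 lay at 4.51 on component 2, with the other arrays from -1.86 to -0.28.

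miR-34a was measured firmly in every sample. Both of its probes were well above background on all 6 arrays, with every spot that was not an outlier carrying the mark. The brighter probe read 521, 351 and 661 intensity units in control replicates 1, 2 and 3, and 563, 353 and 572 units in the knockout replicates. Before scaling, the genotypes thus overlapped, with replicate 2 the dimmest array of each. The group means were 511 ± 155 (SD, n = 3) and 496 ± 124 (SD, n = 3) units, a knockout to control ratio of 0.971. The dimmer probe read 231, 167 and 301 units in control and 246, 161 and 238 units in knockout. Its means were 233 ± 67.1 (SD, n = 3) and 215 ± 46.9 (SD, n = 3) units, a ratio of 0.921. Both probes therefore followed the same course over the arrays, and the ratio of one to the other stayed between 2.10 and 2.40. Spots of the same probe on the same array varied by 2.24% to 10.1% (coefficient of variation). This was less than the spread over the 3 arrays of either genotype. Some single arrays read alike, such as replicate 2 of each genotype on the brighter probe.

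After scaling to each array's 75th percentile, miR-34a was higher on the knockout arrays. Its log2 signal relative to that percentile was 0.86, 0.53 and 0.91 in control replicates 1, 2 and 3, and 1.31, 0.92 and 1.34 in the knockout replicates. All 3 knockout arrays lay above every control array, but knockout replicate 2 and control replicate 3, the nearest neighbours, stood at 0.922 and 0.908 and did not differ beyond the spread of their spots. Of 134 miRNAs detected on at least 3 arrays, 10 (7.46%) had every knockout array above the controls and 4 (2.99%) had every one below, together 14 (10.4%). Control arrays averaged 0.77 ± 0.20 (SD, n = 3) and knockout arrays 1.19 ± 0.23 (SD, n = 3). The difference was 0.43 (limma SE 0.19; 95% interval -0.01 to 0.86), a 1.34-fold higher signal with an interval from 0.995-fold to 1.81-fold. The dimmer probe alone gave 0.35. Within the slide's column 1, which holds 4 arrays, the difference was 0.42, and within column 2, with 1 control and 1 knockout array, 0.43. These are the arrays on which miR-34a was chosen, so the likeness of the columns is no replication. In bulk samples more signal per cell and more cells with the signal cannot be told apart.

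**Figure D1:**
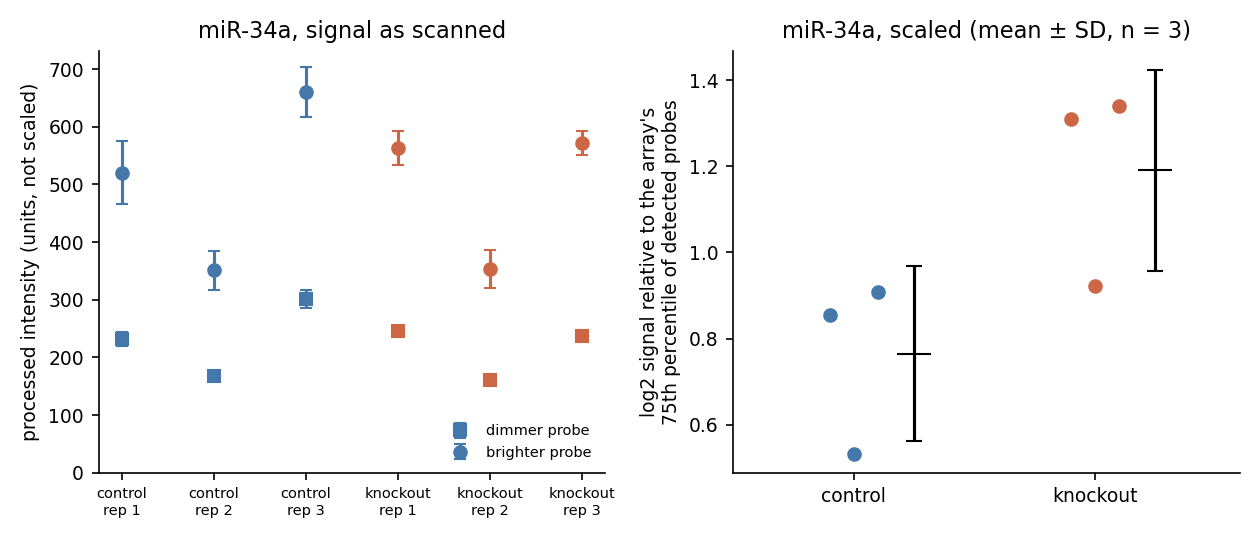
miR-34a on each array. Left, the median processed intensity of its 2 probes as scanned, in intensity units, with bars for the SD over spots; control arrays are blue and knockout arrays orange, and the genotypes overlap. Right, the log2 signal of the brighter probe after scaling to the array's 75th percentile, with black bars for the mean ± SD of 3 arrays: the knockout arrays lie between 0.92 and 1.34 and the control arrays between 0.53 and 0.91.

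The size of this difference rested on the scaling. With no scaling between arrays miR-34a stood at -0.03 (SE 0.29), and when each array was scaled by its mr_1 control spots, an alternative chosen after seeing the data, at 0.21 (SE 0.32). The miRNAs as a whole moved by a like amount. Their median difference was 0.12 as scaled, -0.31 with no scaling and -0.07 with the control spots. Relative to the median miRNA, miR-34a was 0.31 higher in the knockout as scaled and 0.13 to 0.50 higher over 20 alternatives. These values are no sign of stability, since miR-34a was chosen on the same arrays and subtracting the median cancels a change of scale. As scaled, 17 of the 134 tested miRNAs had a higher difference than miR-34a. In the deposited gene-level totals, scaled in the same manner, the difference was 0.26 (SE 0.18), and in the series matrix of the authors 0.29 (SE 0.13). In both of these the genotypes overlapped: the series matrix lists 8.56, 8.82 and 8.82 for control and 9.13, 8.82 and 9.13 for knockout. Leaving out control replicate 2, the lowest array after scaling, brought the difference to 0.27. Over the whole table limma called 0 of 134 miRNAs (0%) at an adjusted p under 0.05. At an unadjusted p under 0.05 5 (3.73%) were higher and 1 (0.746%) was lower, together 6 (4.48%). This split changed with the processing. There were 0 higher and 25 lower with no scaling, 1 and 9 with the control spots, 1 and 8 with quantile scaling, 0 and 5 with all probes as reference, and 21 and 3 with normexp background correction.

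**Figure D2:**
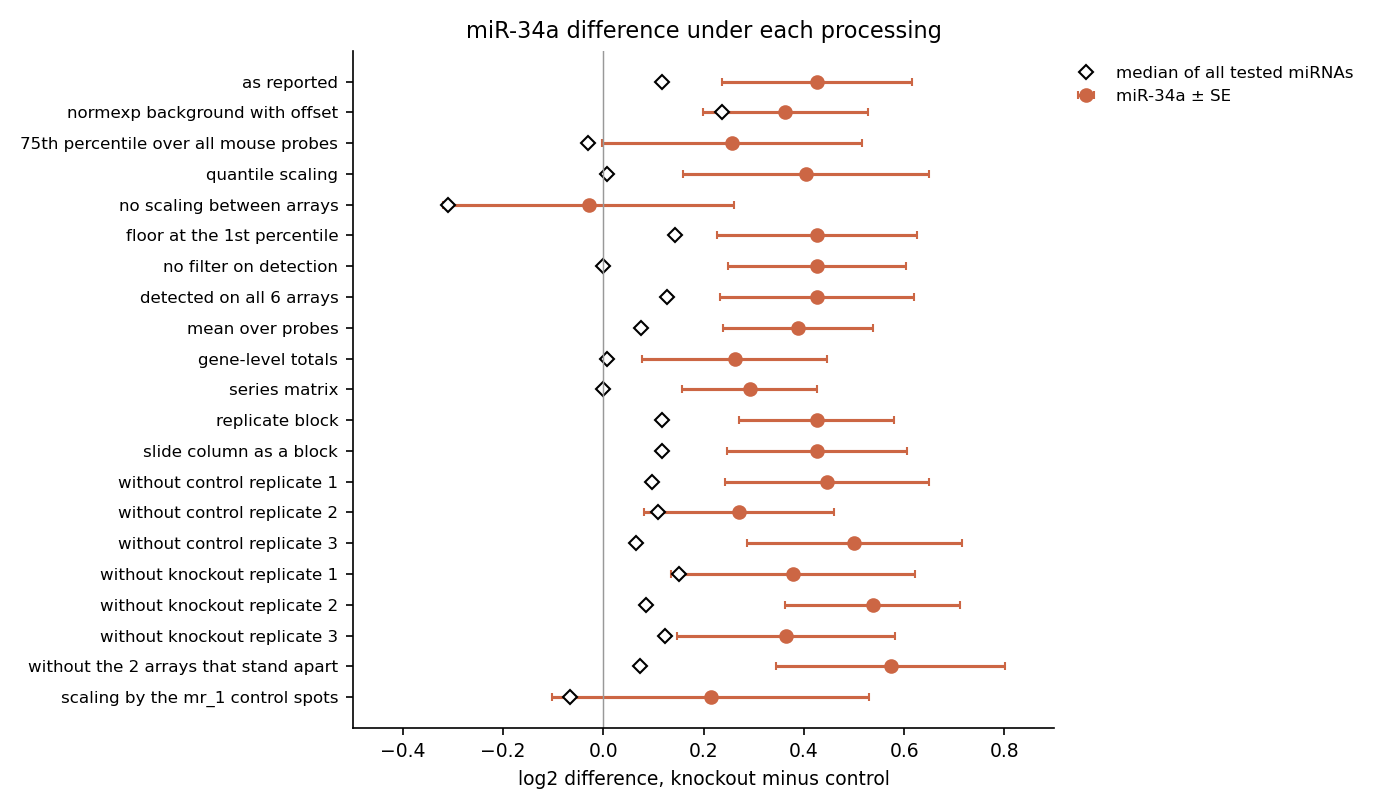
Log2 difference in miR-34a signal, knockout minus control, as reported and under 20 alternatives. Orange points are miR-34a with bars for the limma standard error, and open diamonds are the median over all miRNAs tested under the same setting. The distance of miR-34a from 0 changes with the scaling and is -0.03 with none.

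miR-34c was close to the limit of detection, and its detection split the knockout arrays. The brighter of its 2 probes read 15.5, 13.5 and 12.4 intensity units in control replicates 1, 2 and 3, and 5.48, 5.18 and 13.9 units in the knockout replicates. Control arrays and knockout replicate 3 were alike, and knockout replicates 1 and 2 were lower. On this probe 8, 8 and 4 of 10 spots were well above background in control, against 0 of 8 unflagged spots, 0 of 10 and 9 of 10 in knockout. By the rule of at least 50% of spots, miR-34c was detected on 2 control arrays and 1 knockout array. Its other probe had no such spot on any array. After scaling, 3 of the 6 values lay at the floor set for dim signals (-4.32 on the log2 scale), so no fold is given.

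The deposited gene-level tables give 1 total per miRNA over its probes and an error for each total. Knockout replicates 1 and 2 were again low. The totals rest on the same probes, so this likeness is no separate evidence. The detection call of these tables was positive for miR-34c on 3 control arrays and 1 knockout array. The totals have a scale of their own: in control replicate 1 the brighter probe of miR-34c read 15.5 units and the total was 11.9. The miR-34c total was 11.9 (error 2.67), 9.34 (error 2.26) and 10.7 (error 2.48) intensity units in control. In knockout it was 3.17 (error 2.20), 3.06 (error 1.93) and 10.7 (error 2.37) units. The group means were 10.6 ± 1.27 (SD, n = 3) and 5.64 ± 4.36 (SD, n = 3) units, and the genotypes overlapped because knockout replicate 3 lay at the level of the controls. As a share of each array's 75th percentile of detected totals, miR-34c stood at 5.21%, 5.10% and 4.47% in control and 1.78%, 1.99% and 5.75% in knockout, with the same arrays low on this scale. The scaling references of the 3 knockout arrays were 227, 186 and 226 units. The part of array brightness in the detection of miR-34c was not tested. On each control array and on knockout replicate 3, the miR-34c total was above that of all 428 miRNAs (70% of those on the array) that these tables called on no array. On knockout replicates 1 and 2 it was above 412 and 416 of them. The 428 were set apart by the same calls, so this rank is no separate sign of detection.

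miR-34b-5p, made from the same transcript as miR-34c, was high and low on the same arrays. Its gene-level total was 6.81 (error 2.50), 6.21 (error 2.15) and 7.61 (error 2.39) units in control, and 2.49 (error 2.19), 2.82 (error 1.92) and 6.67 (error 2.26) units in knockout. The opposite arms, miR-34b-3p and miR-34c*, were called on no array and did not split the knockout arrays in this way. In knockout replicates 1, 2 and 3 the totals of miR-34b-3p were 3.02, 2.56 and 1.70 units. Those of miR-34c* were 1.28, 0.65 and 1.46 units. Mir34b and Mir34c are each other's nearest miRNA genes in the RefSeq annotation. The detection call of the gene-level tables was positive for miR-34b-5p and miR-34c on the same 4 arrays, the 3 controls and knockout replicate 3. Of the 611 mouse miRNAs, 4 (0.655%) had this set of calls, 7 (1.15%) were called on all controls and exactly 1 knockout array, and 138 (22.6%) were called on all 6. The 4 were miR-34c, miR-34b-5p, miR-148a and miR-324-3p, the last pair named after their values were seen. By the rule on spots miR-34b-5p was detected on no array. Whether the miR-34b-5p probes also bind miR-34c was not tested.

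**Figure D3:**
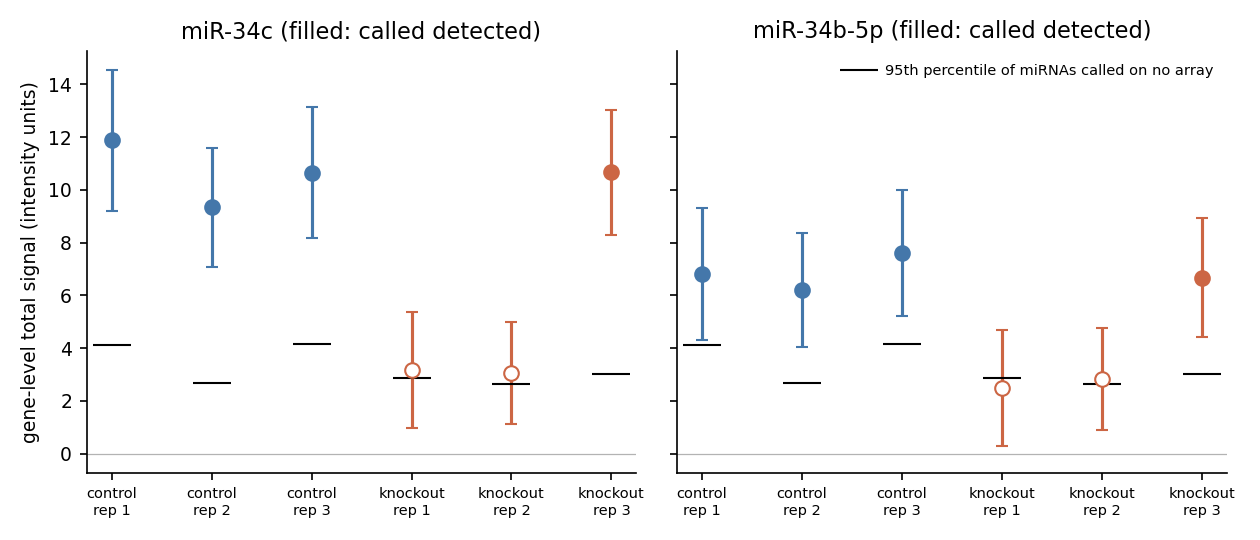
Gene-level total signal of miR-34c (left) and miR-34b-5p (right) on each array, in intensity units, with bars for the error that the deposited tables give. Filled points were called detected and open points were not, control in blue and knockout in orange; black dashes are the 95th percentile of the 428 miRNAs called on no array. Both miRNAs are near these dashes on knockout replicates 1 and 2 and above them on the other 4 arrays. The 428 were set apart by the same calls that fill the points.

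The remaining entries of the miR-34 and miR-449 hairpins gave no detected signal. miR-34b-3p, miR-34c*, miR-449a, miR-449b and miR-449c had no spot well above background on any array, outliers aside, and the gene-level tables called none of them on any array. Their totals ran from -3.52 to 4.24 units, where values below 0 are signals under the local background. Of the 8 entries, miR-34a was thus the 1 detected on all 6 arrays in these macrophages, miR-34c was detected on some, and the relatives with the same seed from the miR-449 genes were not detectable. Signals of different probes are not compared in size, since probes differ in how strongly they bind.

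Other miRNAs tied to p53 had small differences where they were tested. Of 19 miRNAs that p53 is described to induce or mature, all were on the array, 12 were detected on no array, against 452 of all 611 miRNAs, and 6 were detected on at least 3 arrays. Leaving aside miR-34a and miR-34c, 4 members were tested, with 0 called higher and 0 called lower. Of all 134 tested miRNAs 0 (0%) were called, so these counts say nothing particular to the list. The 4 members had a median difference of -0.0038, against 0.12 over all tested miRNAs. miR-107, which restrains cell cycle entry, stood at 0.14 (SE 0.17). miR-15a and miR-16, which come from 1 cluster and lower Bcl2, stood at 0.01 (SE 0.19) and -0.02 (SE 0.15). miR-22, also described as a p53 target, stood at -0.18 (SE 0.20). The smallest limma adjusted p among these 4 was 0.741. In all 4 the genotypes overlapped: miR-107 ranged from -0.50 to -0.13 in control and from -0.31 to -0.08 in knockout on the scaled log2 scale. Whether miR-34a differed from these miRNAs in its response was not tested.

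The p53-induced miRNAs that mark other tissues, apart from miR-34c and miR-192, were not detected. miR-143 and miR-145, typical of stromal and smooth muscle cells, miR-194 and miR-215 of gut and liver, and miR-141, miR-200a, miR-200b, miR-200c and miR-429 of epithelium were detected on no array. miR-192 was detected on 1 of the control arrays and on 0 of the knockout arrays.

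Of 7 miRNAs that p53 is described to repress, mostly of the growth-promoting miR-17 polycistron, 3 were tested and 0 were called. miR-19b stood at -0.19 (SE 0.17), miR-20a at -0.12 (SE 0.17) and miR-92a at 0.26 (SE 0.25), with a median of -0.12 and a smallest limma adjusted p of 0.679. Of 6 miRNAs described to target p53 mRNA itself, 3 were tested and 0 were called, beside the same 0 of 134 (0%). miR-125b-5p stood at -0.19 (SE 0.18), miR-25 at 0.26 (SE 0.19) and miR-30d at 0.01 (SE 0.24), with a median of 0.01 and a smallest limma adjusted p of 0.634. The signs of several of these small differences turned with the scaling.

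**Figure D4:**
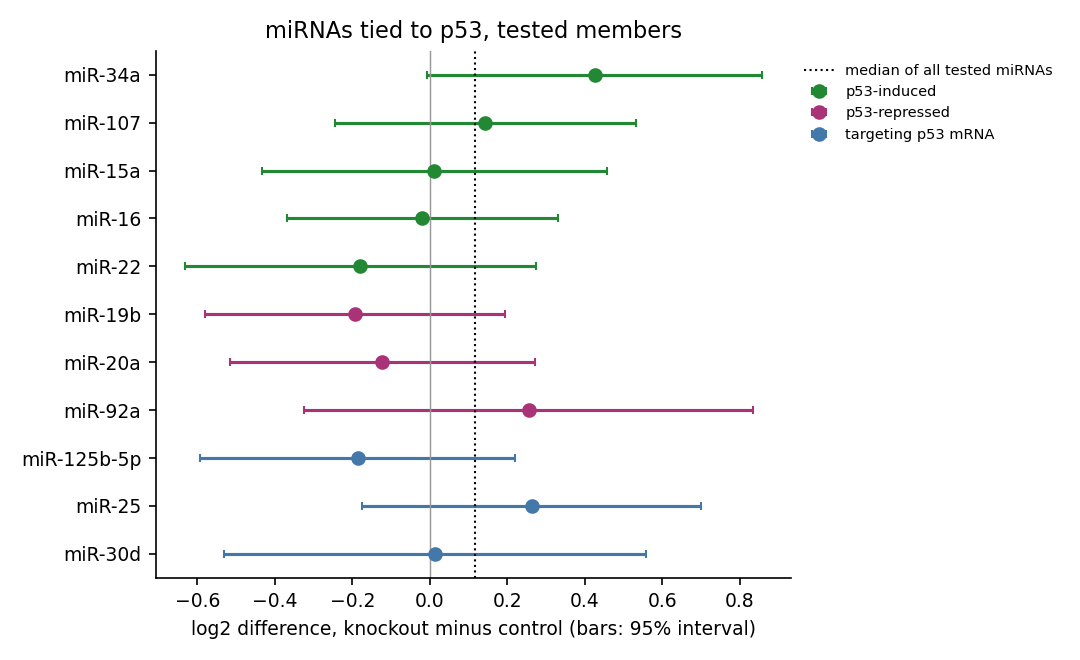
Log2 difference, knockout minus control, of the tested miRNAs tied to p53, with bars for the 95% interval of the limma fit. The dotted line is the median of all 134 tested miRNAs (0.12). miR-34a stands at 0.43 and the other miRNAs between -0.19 and 0.26, and its interval overlaps each of theirs. miR-34a was chosen on this same contrast, so its place among them is no test. miR-34c is left out because 3 of its 6 values lie at the floor.

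Across the 6 arrays, the profile of miR-34a was most like those of let-7g and let-7d, members of the let-7 family that restrains proliferation, and miR-146a, which dampens signalling from Toll-like receptors. Among 109 other miRNAs detected on all arrays, Pearson's r with miR-34a was 0.90 for let-7g (Spearman's rho 0.94), 0.78 for let-7d (rho 0.89) and 0.72 for miR-146a (rho 0.60). miR-494 and miR-689 followed at 0.68 (rho 0.66) and 0.65 (rho 0.89). These names are the end of a ranking of 109 values over 6 arrays. How high r would rise among unrelated profiles was not tested. miR-34a was chosen on its genotype difference, and let-7d, miR-494 and miR-689 also had every knockout array above the controls. In let-7g and miR-146a the genotypes overlapped. let-7g stood at 1.34, 1.31 and 1.36 in control and 1.46, 1.36 and 1.57 in knockout on the scaled log2 scale. miR-146a stood at 2.05, 1.17 and 1.77 in control and 1.77, 1.48 and 2.30 in knockout, so that replicate 2 was the lowest array of each genotype, as for miR-34a.

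The profiles most opposed to miR-34a were those of miR-221, which promotes proliferation by lowering the cell cycle inhibitor p27, at r = -0.93 (rho -0.94), miR-23b at -0.88 (rho -0.94) and miR-23a at -0.80 (rho -0.71). miR-221 stood at 1.32, 1.55 and 0.92 in control and 0.81, 1.21 and 0.57 in knockout. Leaving out the 2 arrays on which miR-34a lay farthest from its median, knockout replicates 1 and 3, left the controls and knockout replicate 2. On these arrays r was 0.98 for let-7g, 0.74 for let-7d, 0.68 for miR-146a, 0.34 for miR-494 and 0.20 for miR-689. It was -0.81 for miR-221, -0.71 for miR-23b and -0.55 for miR-23a. There let-7g ranged only from 1.31 to 1.36, so its r is no sign of stability. With no scaling, where all miRNAs share the brightness of their array and the median r with miR-34a was 0.46, miR-146a, let-7d and let-7g ranked 1, 2 and 3 of 109. There miR-221 was at -0.12, miR-23b at 0.16 and miR-23a at 0.09, so their opposition depended on the scaling. These correlations describe 6 arrays that share a slide and a scaling reference, and the opposed profiles too are the end of a ranking.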

How the data were processed

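RNA from 6 macrophage samples was read on 1-colour Agilent arrays of mouse miRNAs. The authors' scanner files give spot intensity after background subtraction and detrending (per the file headers, by Feature Extraction 10.5.1.1; the submitters' processing notes name 9.1). The deposited gene-level tables give total intensity per miRNA, its error and a detection call. The deposited series matrix holds log2 values whose upper quartile and maximum are the same on every array; how they were made is not stated in the labels.

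The median intensity over spots not marked as outliers was taken for 1759 mouse probes and divided by the array's 75th percentile over the 200 probes detected on all arrays. Signals under the 5th percentile of detected ones were set to it before log2 was taken. A miRNA took its probe with the highest mean. The 134 miRNAs detected on at least 3 arrays were fitted in limma 3.58.1 (R 4.3.3) on genotype alone, with Benjamini-Hochberg adjustment at 0.05. The procedure was tested on simulated data. The changes put into them were larger than the differences given for miR-34a, so that test does not speak for differences of this size. Differences are knockout minus control. Members and lists were chosen with earlier results of these data known. Named were both members, the miR-34 and miR-449 entries, tested list members, and the 5 most alike and 3 most opposed profiles; list members not detected were named after their values were seen. Same-numbered arrays deviated together at r = 0.17, -0.07 and 0.37, so the numbers were not taken as pairs. Slide rows 1 and 3 held controls and rows 2 and 4 knockouts, so row and genotype cannot be told apart. The number of arrays limits the precision.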

Additional observations from a re-analysis of the deposited data

How the results depend on the processing

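The count of miRNAs called over the whole table, and in each p53 list, was 0 under all 20 alternatives. miR-34a moved by more than 1 SD only with no scaling, to -0.029. Leaving out each array in turn gave 0.27 to 0.54 for miR-34a and 0.16 to 0.45 relative to the median miRNA, the lowest without control replicate 2 and the highest without knockout replicate 2; without both control replicate 1 and knockout replicate 2 it was 0.57. With the replicate block miR-34a stood at 0.43 (SE 0.16) and the calls remained at 0; 4 of 6 arrays correlated best with their own number, and unadjusted p under 0.05 rose from 5 higher and 1 lower to 11 and 2. With all spots required to be well above background, miR-34c was detected on 0 arrays. miR-34b-5p was detected on 2 arrays with at least 1 spot and on 4 by the gene-level call.

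Small differences of the p53 lists turned sign. With normexp, miR-15a stood at -0.035, miR-19b at 0.034, miR-20a at 0.10 and miR-125b-5p at 0.12. With all probes as reference, miR-107 stood at -0.024, miR-15a at -0.16 and miR-30d at -0.15. With quantile scaling, miR-15a stood at -0.015 and miR-30d at -0.14. With no scaling, miR-107 stood at -0.31, miR-15a at -0.44, miR-92a at -0.20, miR-25 at -0.19 and miR-30d at -0.44. With gene-level totals, miR-15a stood at -0.10 and miR-30d at -0.10. In the series matrix, miR-15a stood at -0.023, miR-22 at 0.0072, miR-25 at -0.025 and miR-30d at -0.10. With the mr_1 control spots, miR-107 stood at -0.067, miR-15a at -0.20 and miR-30d at -0.20. Without the 2 arrays that stand apart, miR-15a stood at -0.25. Leaving out each array gave -0.18 to 0.11 for miR-15a, -0.10 to 0.060 for miR-16 and -0.13 to 0.21 for miR-30d. The cause was not tested.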
